A study of Mus musculus with 24 samples.

Results

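The 36 genes described here are markers of endothelial cells, the cells that line blood and lymph vessels. They were taken by name, and each gene was represented by its brightest probe set over the 24 arrays, among 14763 genes tested on a mouse expression array. All 36 genes had a probe set that names 1 gene, passed the filter on low signal and were tested. The brightest probe set of 35 members exceeded the 40th percentile of signal on all 24 arrays, and that of Esm1 did so on 19. Of the 36, 12 genes mark junctions and the cell surface, 6 are receptors, 3 are transcription factors of all endothelium, 2 belong to nitric oxide production and caveolae, 5 mark capillary or sprouting endothelium, 5 mark arterial identity and Notch signalling, and 3 mark lymphatic vessels.

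RNA came from hearts of FVB/N mice, removed 8 weeks after an operation at 4 months of age. The 6 groups of 4 arrays were caPI3K MI and caPI3K sham (a constitutively active PI3K transgene expressed in the heart), dnPI3K MI and dnPI3K sham (a dominant negative PI3K transgene expressed in the heart, described as cardiac-specific), and Ntg MI and Ntg sham (non-transgenic). MI is a myocardial infarction, and sham is the control operation. The sources used here give neither the promoter of the transgenes, nor the number of transgenic lines, nor the sex of the mice. One tag of the caPI3K MI samples carries the name of the sham group, while their titles and descriptions say MI, which was followed. The labels say that hearts were homogenized individually without stating whether arrays are separate animals, and p-values cover only the spread seen among these arrays. Each sample title ends in a number whose meaning is not stated, and some arrays are named by it below.

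On 3 of the 4 caPI3K sham arrays the Y-linked gene Eif2s3y lay at 10.55, 10.94 and 10.99 on the log2(signal + 11.2) scale, against 3.71 to 5.71 on the other 21 arrays, and Xist, the RNA of the inactive X chromosome, lay at 6.77 to 7.08 against 12.65 to 13.61. In caPI3K sham hearts, replicates 1, 2 and 3 therefore carried Y-linked signal and replicate 4 did not. Genotype and this difference cannot be told apart in replicates 1 to 3. The caPI3K MI arrays carried no Y-linked signal, so MI against sham in caPI3K hearts cannot be told apart from it there either. The same holds for the mean MI effect and the differences in MI effect that use caPI3K hearts. Counts of called members that use caPI3K sham hearts are therefore also given without replicates 1 to 3. So are the genes called between caPI3K and dnPI3K sham hearts. Correlations between arrays over all genes ran between 0.91 and 0.964.

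Endothelial cells share a core program of junction proteins (Cdh5, Pecam1, Cldn5), receptors for vascular growth factors (Kdr, Flt1, Tek, Tie1) and transcription factors of the ETS and SoxF families (Erg, Sox7, Sox17, Sox18). Capillary, arterial and lymphatic vessels add their own genes: Gpihbp1 carries lipoprotein lipase to the capillary surface, Dll4 and Notch1 act in arterial identity, and Prox1 and Flt4 act in lymphatic vessels. In the heart, capillaries run beside nearly every cardiomyocyte, and a whole-heart RNA sample mixes all of these cells. In such bulk samples fewer endothelial cells and less RNA per cell cannot be told apart.

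Promoter windows are shown for Clec14a, Aqp1 and Notch1, which were all lower in caPI3K than in dnPI3K sham hearts. Each holds 250 bases before the gene start, from RefSeq on assembly GRCm38.p6, read along the gene's own strand. The Clec14a window is chr12:58269259-58269508 on the minus strand, the Aqp1 window chr6:55336049-55336298 on the plus strand and the Notch1 window chr2:26503823-26504072 on the minus strand. Capitals mark the letters CNGGAAG, an ETS-type motif, on either strand.
Clec14a: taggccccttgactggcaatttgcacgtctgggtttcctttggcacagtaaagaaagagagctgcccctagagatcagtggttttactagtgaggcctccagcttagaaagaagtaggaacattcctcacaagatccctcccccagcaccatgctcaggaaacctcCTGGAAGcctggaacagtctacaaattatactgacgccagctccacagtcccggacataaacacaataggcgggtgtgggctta
Aqp1: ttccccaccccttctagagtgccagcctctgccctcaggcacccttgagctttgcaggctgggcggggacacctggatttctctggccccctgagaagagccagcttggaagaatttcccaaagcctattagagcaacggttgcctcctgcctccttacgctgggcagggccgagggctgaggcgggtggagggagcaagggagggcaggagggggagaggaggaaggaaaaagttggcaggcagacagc
Notch1: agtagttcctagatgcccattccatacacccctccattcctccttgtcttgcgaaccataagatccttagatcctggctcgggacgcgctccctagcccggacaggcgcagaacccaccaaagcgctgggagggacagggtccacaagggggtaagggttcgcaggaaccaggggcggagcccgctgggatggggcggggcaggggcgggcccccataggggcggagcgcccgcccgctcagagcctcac

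The Clec14a window holds 1 ETS-type match, and the Aqp1 and Notch1 windows hold none. Of the 36 genes, 20 had an entry in the RefSeq table, with 26 windows. An ETS-type match was present in 12 of those 26 windows (46.2%), against 26.6% of all 32851 windows of the same length. The SOX-type letters ACAATGG, on either strand, were in 0 of the 26 windows and in 3.02% of all windows. These are descriptions of letters in a window of this length and were not tested. Tmem100, Sox7, Sox17, Sox18, Ramp2 and Aplnr had no entry.

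The first question was whether an infarct moved the endothelial markers. Values below are log2(signal + 11.2), and differences are log2 differences of group means with their standard errors from 1 limma fit over all 14763 genes and 24 arrays. A gene was called where its Benjamini-Hochberg adjusted p was below 0.05. Where groups of arrays are said not to overlap, the share of all genes that separate in that way was not counted. Averaged over the 3 genotypes, 2 of the 36 genes were called, both higher after MI, while 13.6% of all genes were called. The 2 genes were Esm1, a secreted proteoglycan of sprouting endothelium, and Pdpn, a surface glycoprotein of lymphatic endothelium that mesothelial cells and fibroblasts also make. The median change of the 36 genes was 0.09, against -0.0037 over all genes, and for 34 of the 36 the 95% interval lay within a 1.5-fold change either way, as it did for 66.8% of all genes.

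**Figure D1:**
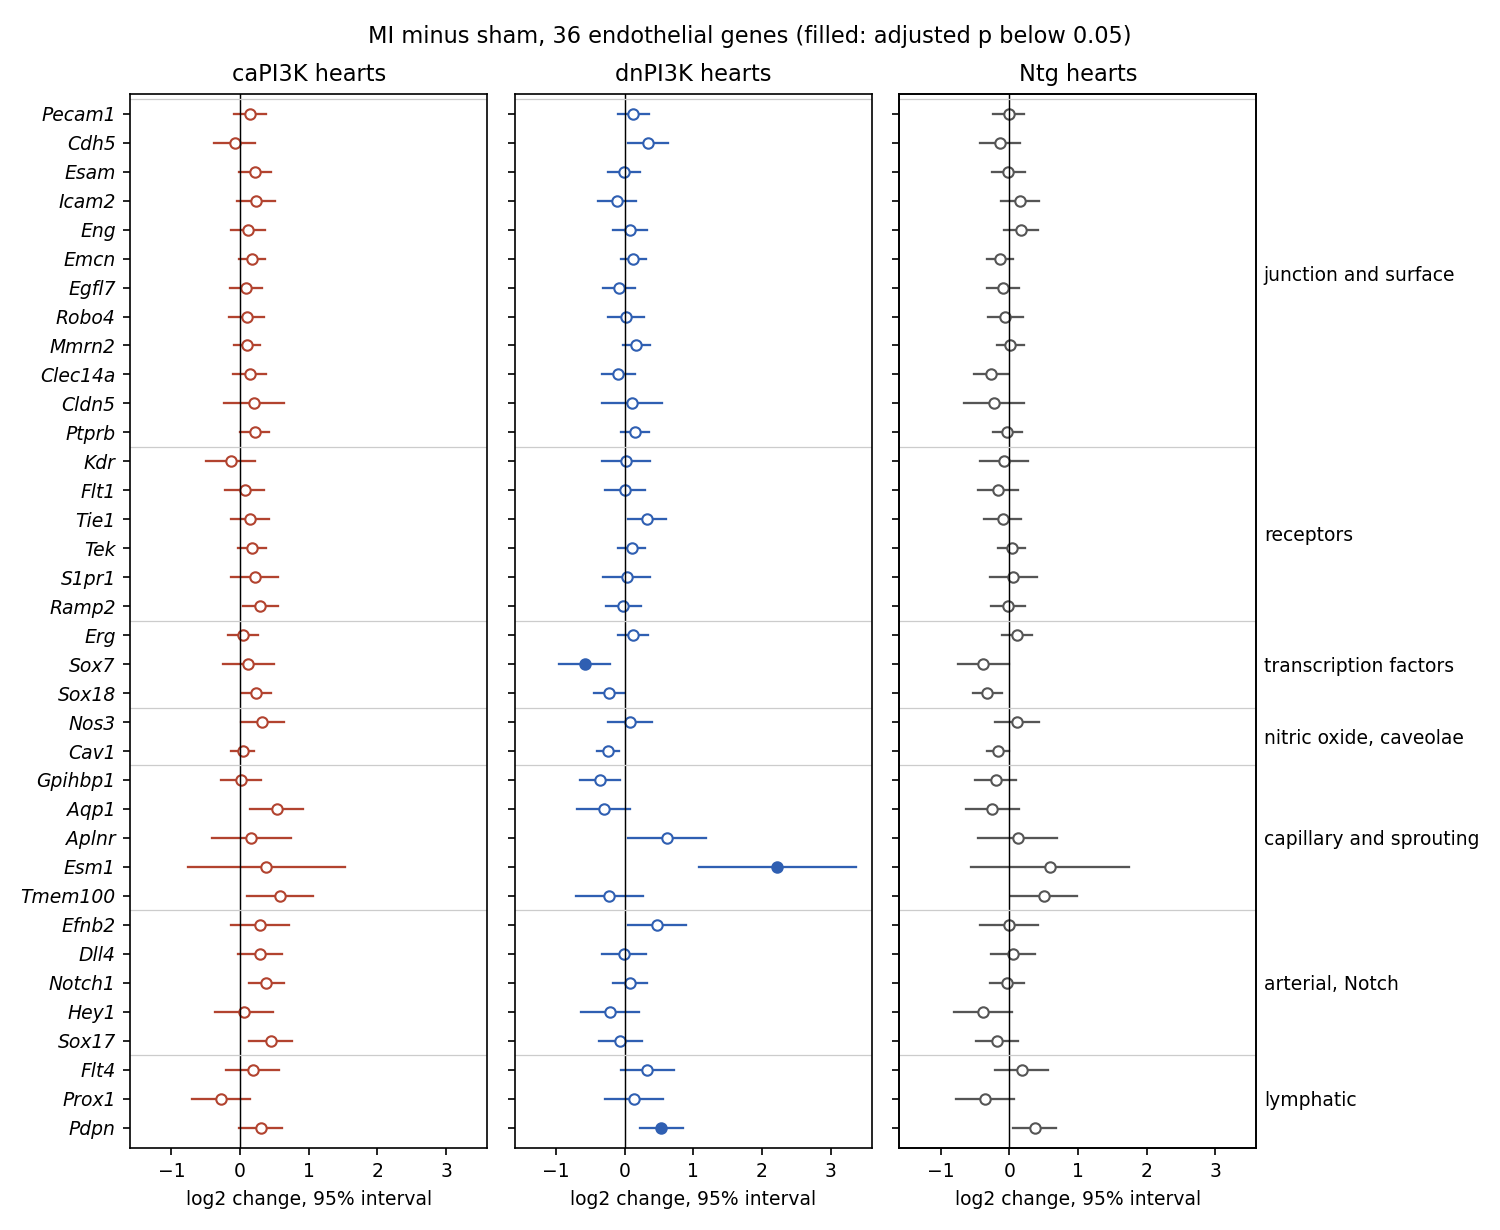
Change after MI in each genotype for the 36 endothelial genes, as MI minus sham on the log2(signal + 11.2) scale (x axis), with points for estimates and lines for 95% intervals from the limma fit. Genes are grouped by role down the page, and filled points have an adjusted p below 0.05: Esm1, Pdpn and Sox7 in dnPI3K hearts, and none in caPI3K or Ntg hearts.

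Within genotypes, 0 of the 36 genes were called in caPI3K hearts (1.11% of all genes called), 3 in dnPI3K hearts (9.37% of all genes) and 0 in Ntg hearts (0.772% of all genes). At an unadjusted p below 0.05 the counts of the 36 were 8 in caPI3K (12.1% of all genes), 10 in dnPI3K (21.9% of all genes) and 6 in Ntg hearts (12% of all genes). In caPI3K hearts 33 of the 36 genes lay above 0 with a median of 0.17, in dnPI3K hearts 22 did with a median of 0.05, and in Ntg hearts 13 did with a median of -0.03. The medians over all genes lay within 0.02 of 0 in every comparison. In caPI3K hearts the 3 genes below 0 were Cdh5, Kdr and Prox1. The caPI3K count above 0 and its median include the sham arrays with Y-linked signal. They were not recomputed without those arrays, nor was the median over the genotypes.

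Esm1 was measured by a dim probe set (1449280_at). In caPI3K hearts it lay at 7.97, 7.34, 7.65 and 7.86 after MI, against 6.80, 7.83, 7.28 and 7.37 after sham. In dnPI3K hearts it lay at 7.91, 8.43, 7.96 and 8.60 after MI, against 5.66, 6.81, 6.98 and 4.56 after sham. In Ntg hearts it lay at 7.03, 7.82, 7.47 and 6.05 after MI, against 6.31, 7.87, 4.29 and 7.52 after sham. The dnPI3K groups did not overlap, while those of the other genotypes did, and the sham values of dnPI3K and Ntg hearts were widely spread. Esm1 rose by 2.22 ± 0.56 in dnPI3K hearts (adjusted p = 0.0106), and the mean over the genotypes rose by 1.07 ± 0.32 (adjusted p = 0.0256). Without dnPI3K sham replicate 4, the lowest of its group, the dnPI3K change was 1.74 with an adjusted p of 0.0573, and over all alternatives its adjusted p ran between 0.00161 and 0.0573. The call on the mean was lost without Ntg MI replicate 2 (0.99, adjusted p = 0.0501), without dnPI3K sham replicate 4 (0.91, adjusted p = 0.0524) or without the Y-linked arrays (1.05, adjusted p = 0.141), in a range of 0.00975 to 0.141 over the alternatives.

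Pdpn (probe set 1419309_at) lay at 9.17, 8.93, 8.93 and 9.10 in caPI3K MI hearts, against 8.91, 8.60, 8.57 and 8.85 in caPI3K sham hearts. In dnPI3K hearts it lay at 9.36, 9.34, 9.14 and 9.52 after MI, against 8.70, 8.84, 8.99 and 8.69 after sham. In Ntg hearts it lay at 9.14, 9.06, 9.06 and 8.92 after MI, against 8.35, 8.64, 8.46 and 9.26 after sham. Every MI array was above every sham array in the transgenic genotypes, and in Ntg hearts 1 sham array, replicate 4, was above all MI arrays. Pdpn rose by 0.40 ± 0.09 as a mean over the genotypes (adjusted p = 0.00229) and by 0.53 ± 0.15 in dnPI3K hearts (adjusted p = 0.0243). Without arrays 415 to 418 (replicates 1 and 2 of dnPI3K sham and of Ntg sham) the mean change was 0.33 with an adjusted p of 0.0514, in a range of 3.13e-05 to 0.0514 over all alternatives, and the change in dnPI3K hearts was 0.49 with an adjusted p of 0.144. The change was 0.37 ± 0.15 in Ntg hearts, with an adjusted p of 0.297. Without Ntg sham replicate 4 the Ntg change was 0.56 with an adjusted p of 0.00983, and no other alternative called it. The dnPI3K call was lost without dnPI3K sham replicate 1 (0.50) or 4 (0.49) or dnPI3K MI replicate 2 (0.53) or 4 (0.47), with adjusted p of 0.0513 to 0.0869 (0.00402 to 0.144 over all alternatives).

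Markers of other cells that make Pdpn moved in the same samples. The level of a gene list on an array is the median, over its genes, of the deviation from each gene's mean over the 24 arrays. In dnPI3K hearts 2 of 7 mesothelial and epicardial markers were called higher after MI, and the level of that list was 0.26 to 0.95 after MI against -0.51 to 0.05 after sham. Of 12 fibroblast markers 7 rose in dnPI3K hearts, and the list's level was 0.35 to 0.82 after MI against -0.59 to 0.01 after sham. Of all genes 9.37% were called after MI in dnPI3K hearts. In the mean over genotypes, where 13.6% of all genes were called, 10 of 12 fibroblast markers rose, with a median change of 0.89. There 9 of 13 cardiomyocyte markers fell, with a median of -0.17. Macrophage markers rose in 4 of 12 cases in that mean, and 0 of 4 platelet markers were called in any comparison. In dnPI3K hearts 3 of 4 adipocyte markers fell after MI, with a median of -0.86. Ntg sham replicate 4, the sham array above all Ntg MI arrays for Pdpn, had a fibroblast level of 0.30, against -0.82 to -0.58 on Ntg sham replicates 1 to 3. Its macrophage level was 0.22 against -0.46 to -0.14. Its mesothelial level of -0.14 lay within theirs, -0.34 to 0.11. The part of these lists in the Pdpn change was not tested. The 2 other lymphatic genes were not called: Flt4, the lymphatic receptor for VEGF-C, differed by 0.23 ± 0.11 in the mean over genotypes (adjusted p = 0.187), and Prox1, the lymphatic transcription factor, was not called in any of the 13 comparisons.

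Prox1 lay at 8.30, 7.81, 7.90 and 8.24 in caPI3K MI hearts, against 8.61, 8.64, 8.06 and 8.07 in caPI3K sham hearts. It lay at 9.03, 8.40, 8.53 and 8.26 in dnPI3K MI hearts, against 8.50, 8.34, 8.27 and 8.58 in dnPI3K sham hearts. It lay at 7.67, 7.86, 8.47 and 8.18 in Ntg MI hearts, against 8.25, 8.68, 8.02 and 8.67 in Ntg sham hearts. MI and sham arrays overlapped in all 3 genotypes.

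Sox7, a SoxF transcription factor, lay at 9.85, 9.61, 9.80 and 9.61 in dnPI3K MI hearts, against 10.17, 9.93, 10.11 and 10.98 in dnPI3K sham hearts. In caPI3K hearts it lay at 10.29, 10.06, 10.21 and 9.73 after MI, against 10.29, 9.85, 10.10 and 9.56 after sham. In Ntg hearts it lay at 9.76, 9.75, 10.24 and 9.76 after MI, against 10.07, 10.55, 10.31 and 10.10 after sham. The dnPI3K groups did not overlap, and dnPI3K sham replicate 4 was far above its group. Sox7 fell by 0.58 ± 0.18 in dnPI3K hearts (adjusted p = 0.0391). Without dnPI3K sham replicate 4 the difference was -0.36 (adjusted p = 0.203), and the call was also lost without dnPI3K sham replicate 1 (-0.63) or dnPI3K MI replicate 2 (-0.55), 3 (-0.61) or 4 (-0.55). A second Sox7 probe set, dim and above the 40th percentile on 12 arrays, gave 0.15 for the same comparison, the opposite sign. Over all alternatives the adjusted p ran between 0.0199 and 0.91.

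**Figure D2:**
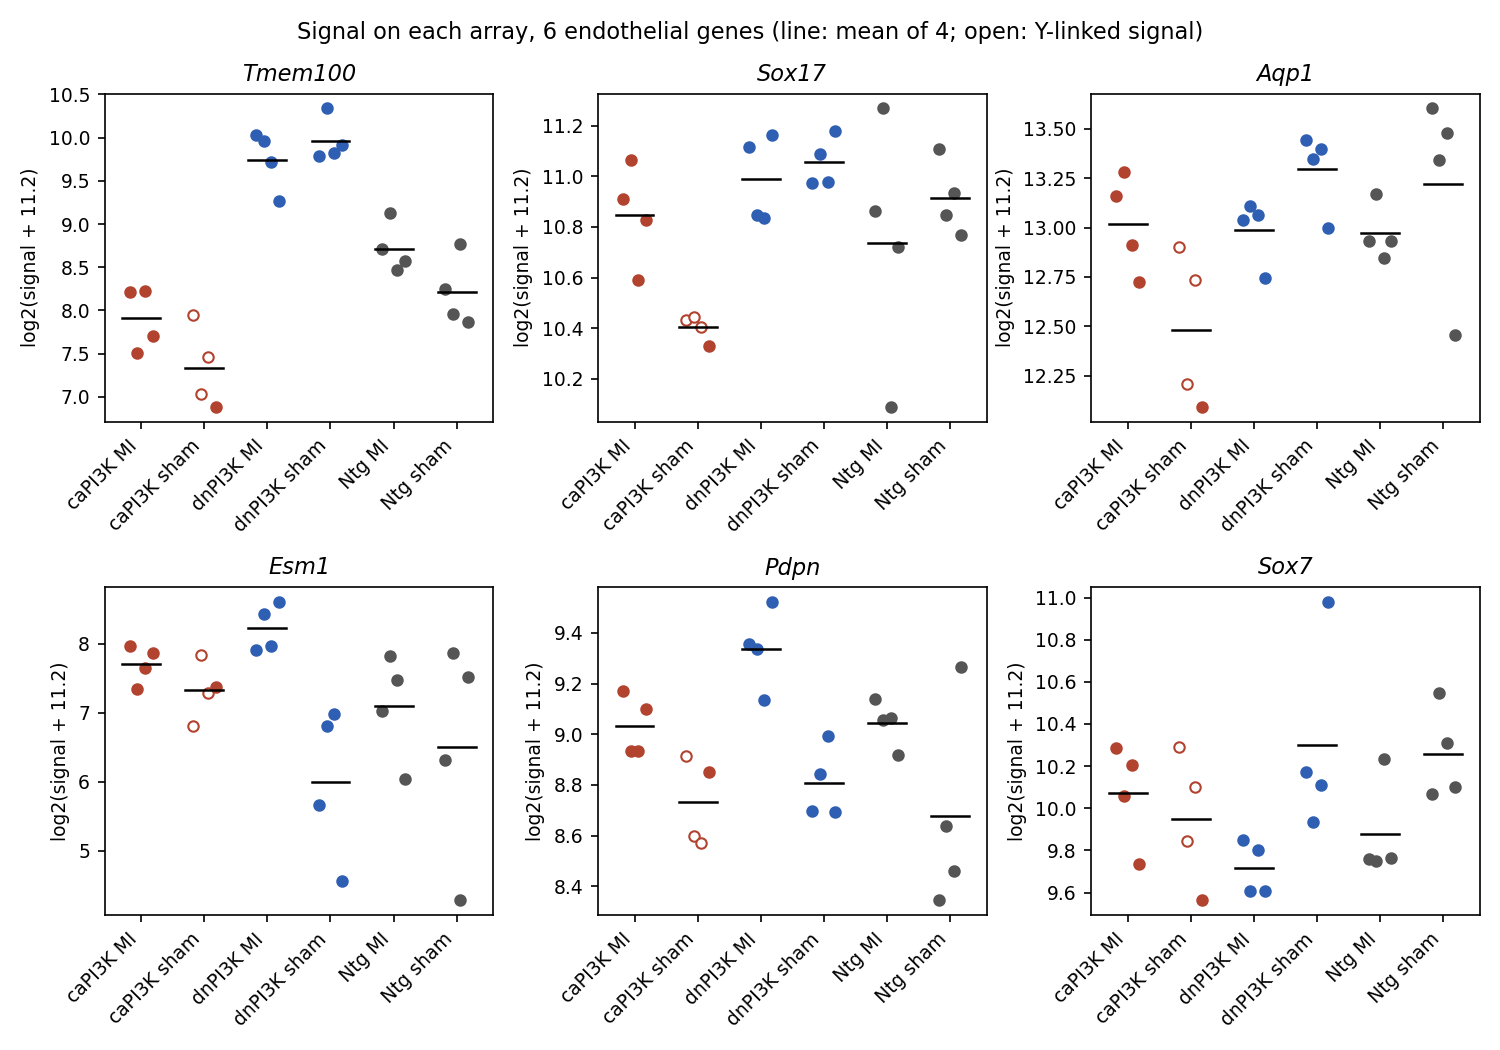
Signal of 6 endothelial genes on each of the 24 arrays as log2(signal + 11.2) (y axis), by genotype and operation (x axis), with a line at each group's mean of 4 arrays. Open circles are caPI3K sham arrays with Y-linked signal. Tmem100 in dnPI3K hearts lies above every array of the other genotypes, and Esm1 in dnPI3K MI hearts lies above every dnPI3K sham array.

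The core markers were among the genes not called in any comparison. Pecam1, an adhesion molecule of endothelial junctions, lay at 11.04, 10.81, 10.98 and 11.11 in caPI3K MI hearts, against 10.94, 10.59, 11.01 and 10.81 in caPI3K sham hearts. It lay at 11.05, 11.06, 10.91 and 11.23 in dnPI3K MI hearts, against 10.89, 11.04, 10.83 and 11.00 in dnPI3K sham hearts. It lay at 11.01, 11.14, 10.65 and 10.54 in Ntg MI hearts, against 10.77, 10.77, 10.93 and 10.90 in Ntg sham hearts. The Ntg MI arrays were spread more widely than the sham arrays, with replicates 3 and 4 low and replicates 1 and 2 high.

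Cdh5, the cadherin of endothelial junctions, lay at 9.16, 8.95, 9.59 and 9.10 in caPI3K MI hearts, against 9.18, 9.16, 9.36 and 9.42 in caPI3K sham hearts. It lay at 9.35, 9.40, 9.01 and 9.54 in dnPI3K MI hearts, against 8.91, 9.24, 8.71 and 9.09 in dnPI3K sham hearts. It lay at 9.14, 9.28, 9.46 and 9.29 in Ntg MI hearts, against 9.42, 9.50, 9.60 and 9.18 in Ntg sham hearts. MI and sham arrays overlapped in each genotype, and the difference in dnPI3K hearts was 0.33 ± 0.14 (adjusted p = 0.158).

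Kdr, the main receptor for VEGF-A, lay at 10.78, 10.58, 10.95 and 11.27 in caPI3K MI hearts, against 10.93, 10.80, 11.16 and 11.25 in caPI3K sham hearts. It lay at 10.38, 10.74, 10.64 and 10.81 in dnPI3K MI hearts, against 10.35, 10.66, 10.51 and 10.97 in dnPI3K sham hearts. It lay at 10.37, 10.97, 10.97 and 10.10 in Ntg MI hearts, against 10.52, 10.71, 10.55 and 10.93 in Ntg sham hearts. The 2 operations overlapped in every genotype.

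Tek, the angiopoietin receptor, lay at 10.97, 10.58, 11.03 and 10.84 in caPI3K MI hearts, against 10.79, 10.50, 10.74 and 10.70 in caPI3K sham hearts. It lay at 10.70, 10.93, 10.89 and 10.94 in dnPI3K MI hearts, against 10.63, 10.87, 10.85 and 10.70 in dnPI3K sham hearts. It lay at 10.79, 10.94, 10.85 and 10.62 in Ntg MI hearts, against 10.62, 10.87, 10.83 and 10.74 in Ntg sham hearts. All 6 groups of Tek overlapped one another.

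Nos3, the endothelial nitric oxide synthase, lay at 9.71, 9.36, 9.97 and 9.86 in caPI3K MI hearts, against 9.75, 9.34, 9.65 and 8.86 in caPI3K sham hearts. It lay at 9.79, 9.68, 9.98 and 9.82 in dnPI3K MI hearts, against 9.52, 9.76, 9.77 and 9.89 in dnPI3K sham hearts. It lay at 9.69, 10.00, 9.75 and 9.57 in Ntg MI hearts, against 9.69, 9.45, 9.86 and 9.54 in Ntg sham hearts. One caPI3K sham array, replicate 4, was lower than the other 23.

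Of the remaining genes not called after MI, Cav1, the coat protein of caveolae, came nearest in dnPI3K hearts, at -0.24 ± 0.08 with an adjusted p of 0.0516. Gpihbp1 differed by -0.36 ± 0.14 in dnPI3K hearts (adjusted p = 0.125), and Sox18 by -0.32 ± 0.11 in Ntg hearts (adjusted p = 0.183). Efnb2, the arterial ephrin, differed by 0.47 ± 0.21 and Tie1, a partner of Tek, by 0.33 ± 0.13 in dnPI3K hearts (adjusted p = 0.175 and 0.135). In caPI3K hearts the smallest p belonged to Notch1 (0.38 ± 0.12, adjusted p = 0.145), Sox17 (0.44 ± 0.15, adjusted p = 0.167) and Aqp1 (0.54 ± 0.19, adjusted p = 0.187).

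The second question was whether the change after MI depended on genotype. The difference in MI effect called 0 of the 36 genes between caPI3K and dnPI3K, between caPI3K and Ntg and between dnPI3K and Ntg hearts, and in each of these 3 comparisons limma called 0% of all genes. At an unadjusted p below 0.05 the counts of the 36 were 8 for caPI3K against dnPI3K (10.2% of all genes), 6 for caPI3K against Ntg (5.53% of all genes) and 4 for dnPI3K against Ntg (7.6% of all genes). Sox18 had the smallest of these p-values for caPI3K against Ntg, with a difference of 0.55 ± 0.15 and an adjusted p of 0.743. Aqp1 had the smallest for caPI3K against dnPI3K, with 0.84 ± 0.27 and an adjusted p of 0.234. The Esm1 change in dnPI3K hearts exceeded that in Ntg hearts by 1.63 ± 0.79 (adjusted p = 0.655), so its call in dnPI3K hearts is not shown to differ between genotypes. The 95% interval of the difference stayed within 1.5-fold for 14, 16 and 21 of the 36 genes in the comparisons as ordered above. The caPI3K MI effect and the sham comparisons described next share the caPI3K sham arrays.

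The third question was how the markers differed between genotypes without an infarct. Between caPI3K and dnPI3K sham hearts 8 of the 36 genes were called (22.2%), 7 lower and 1 higher in caPI3K hearts, while 9.9% of all genes were called. The 7 lower genes were Tmem100, Sox17, Aqp1, Notch1, Ramp2, Sox18 and Clec14a, and the higher gene was Aplnr. The median difference of the 36 genes was -0.18, and 8 of 36 lay above 0. These 8 were Aplnr, Esm1, Kdr, Cdh5, Dll4, Mmrn2, Flt4 and Erg. The median and the count above 0 include the caPI3K sham arrays with Y-linked signal and were not recomputed without them. Of the core markers, Kdr differed by 0.41 ± 0.17 (adjusted p = 0.148) and Cdh5 by 0.29 ± 0.14 (adjusted p = 0.238), while Pecam1, Tek and Nos3 lay below 0. Against Ntg sham hearts, 0 of the 36 genes were called in caPI3K sham hearts (0.278% of all genes), with 7 of the 36 and 11.2% of all genes at an unadjusted p below 0.05, and 1 was called in dnPI3K sham hearts (1.14% of all genes). The 1 gene was Tmem100. Cdh5 differed by -0.44 ± 0.14 in dnPI3K against Ntg sham hearts (adjusted p = 0.171).

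**Figure D3:**
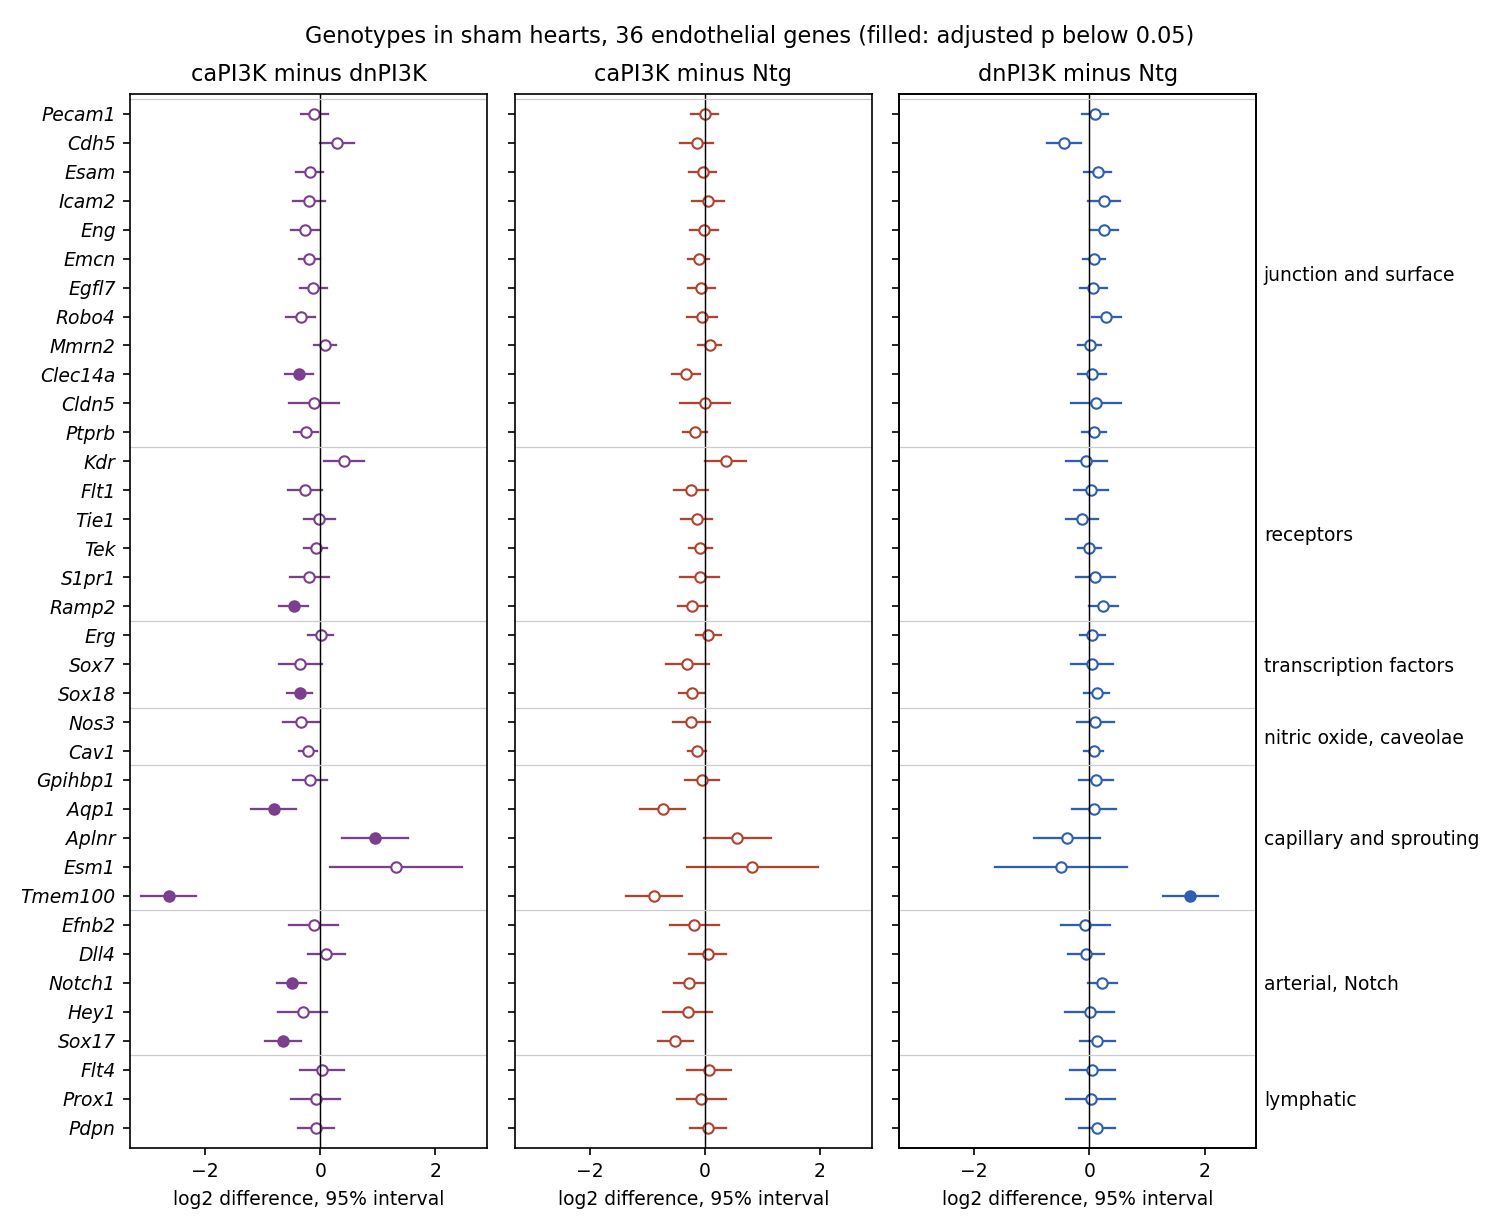
Differences between genotypes in sham hearts for the 36 endothelial genes on the log2(signal + 11.2) scale (x axis), with 95% intervals from the limma fit, grouped by role down the page. Filled points have an adjusted p below 0.05: 8 genes for caPI3K minus dnPI3K, none for caPI3K minus Ntg, and Tmem100 alone for dnPI3K minus Ntg.

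Tmem100, a membrane protein that in mouse endothelium lies downstream of BMP9 and BMP10 signalling through ALK1, had the largest genotype differences among the 36 in sham hearts (probe set 1449533_at). In sham hearts it lay at 7.95, 7.03, 7.47 and 6.89 in caPI3K, at 9.79, 10.34, 9.82 and 9.91 in dnPI3K and at 8.25, 7.96, 8.77 and 7.87 in Ntg. In MI hearts it lay at 8.22, 7.51, 8.23 and 7.71 in caPI3K, at 10.04, 9.96, 9.72 and 9.26 in dnPI3K and at 8.71, 9.12, 8.46 and 8.57 in Ntg. Every dnPI3K array lay above every array of the other genotypes, and caPI3K and Ntg arrays overlapped in sham hearts but not in MI hearts.

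In sham hearts Tmem100 was lower in caPI3K than in dnPI3K (-2.63 ± 0.23, or 0.161 times the dnPI3K level, adjusted p = 1.84e-08). It was 1.75 ± 0.23 higher in dnPI3K than in Ntg sham hearts (3.37 times, adjusted p = 5.35e-05). In caPI3K against Ntg sham hearts the difference was -0.88 ± 0.23 with an adjusted p of 0.105. In MI hearts Tmem100 was called for caPI3K against dnPI3K (-1.83 ± 0.23, adjusted p = 1.39e-05) and for dnPI3K against Ntg (1.03 ± 0.23, adjusted p = 0.0133). For caPI3K against Ntg MI hearts it stood at -0.80 ± 0.23 with an adjusted p of 0.584. These comparisons share groups and are not independent of one another.

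The Tmem100 calls of caPI3K against dnPI3K hearts, sham and MI, held when any single array was left out, and that of dnPI3K against Ntg sham hearts also did. The call of dnPI3K against Ntg MI hearts was lost without Ntg MI replicate 3 (0.94) or 4 (0.98) or dnPI3K MI replicate 1 (0.93) or 2 (0.96), with adjusted p of 0.0509 to 0.0615 (0.00783 to 0.856 over all alternatives). Without the Y-linked arrays the sham difference between caPI3K and dnPI3K was -3.08. A second Tmem100 probe set, dim with a mean signal of 95.6 and above the 40th percentile on 19 arrays, gave -0.33 for caPI3K against dnPI3K and -0.17 for dnPI3K against Ntg sham hearts, and neither was called.

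Sox17, a SoxF factor of arterial endothelium, lay at 10.43, 10.45, 10.41 and 10.33 in caPI3K sham hearts, at 10.97, 11.09, 10.98 and 11.18 in dnPI3K sham hearts and at 11.11, 10.85, 10.94 and 10.77 in Ntg sham hearts. All 4 caPI3K sham arrays were below all 8 other sham arrays. It was lower in caPI3K than in dnPI3K sham hearts (-0.65 ± 0.15, adjusted p = 0.00483), and against Ntg sham hearts the difference was -0.51 ± 0.15 (adjusted p = 0.147). Sox17 in MI hearts lay at 10.91, 11.06, 10.59 and 10.83 in caPI3K, at 11.12, 10.85, 10.84 and 11.16 in dnPI3K and at 10.86, 11.27, 10.09 and 10.72 in Ntg. All caPI3K MI arrays were above the caPI3K sham arrays, and the genotypes overlapped in MI hearts. The second Sox17 probe set gave -0.47 for caPI3K against dnPI3K sham hearts (adjusted p = 0.114), within a range of 7.23e-05 to 0.179 over all alternatives.

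Notch1, a receptor for Dll4, lay at 9.11, 9.09, 9.21 and 8.99 in caPI3K sham hearts, at 9.34, 9.57, 9.66 and 9.81 in dnPI3K sham hearts and at 9.61, 9.03, 9.50 and 9.37 in Ntg sham hearts. The caPI3K arrays were below all dnPI3K arrays and overlapped those of Ntg. The difference between caPI3K and dnPI3K was -0.50 ± 0.12 (adjusted p = 0.00884). A second Notch1 probe set, with a mean signal of 234, gave 0.14 for the same comparison, the opposite sign (adjusted p = 0.894, and 0.0038 to 0.894 over all alternatives). Notch1 in MI hearts lay at 9.64, 9.59, 9.43 and 9.27 in caPI3K, at 9.85, 9.63, 9.67 and 9.55 in dnPI3K and at 9.18, 9.42, 9.41 and 9.37 in Ntg, with every dnPI3K array above every Ntg array. That difference was 0.33 ± 0.12 and was not called (adjusted p = 0.175). Dll4, a Notch ligand, Hey1, a Notch target, and Efnb2 were not called in any comparison.

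Aqp1, the water channel of cardiac capillaries, lay at 12.90, 12.21, 12.73 and 12.09 in caPI3K sham hearts, at 13.44, 13.34, 13.40 and 12.997 in dnPI3K sham hearts and at 13.60, 13.34, 13.48 and 12.45 in Ntg sham hearts. The caPI3K arrays were below all dnPI3K arrays, and Ntg sham replicate 4 lay among them. The difference was -0.81 ± 0.19 for caPI3K against dnPI3K (adjusted p = 0.00495) and -0.74 ± 0.19 for caPI3K against Ntg (adjusted p = 0.0886). Without Ntg sham replicate 4 the comparison with Ntg gave -0.99 with an adjusted p of 0.00079. Aqp1 is also a protein of red cells. The 3 red cell markers had a list level of -0.32 to 0.50 in caPI3K and -0.55 to 0.90 in dnPI3K sham hearts, with 0 called. On Ntg sham replicate 4 that level was -0.97, against -0.47 to 0.25 on replicates 1 to 3. The part of these markers in the Aqp1 differences was not tested. Aqp1 in MI hearts lay at 13.16, 13.28, 12.91 and 12.72 in caPI3K, at 13.04, 13.11, 13.06 and 12.74 in dnPI3K and at 12.93, 13.17, 12.85 and 12.93 in Ntg, and the 3 genotypes overlapped.

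Aplnr, the apelin receptor, was the gene that was higher in caPI3K sham hearts. It lay at 12.48, 11.97, 12.34 and 11.85 in caPI3K, at 11.29, 10.98, 11.12 and 11.45 in dnPI3K and at 11.25, 11.87, 10.88 and 12.39 in Ntg sham hearts. The caPI3K arrays were above all dnPI3K arrays, and the Ntg arrays spanned both. The difference was 0.95 ± 0.28 for caPI3K against dnPI3K (adjusted p = 0.0281). The call was lost without dnPI3K sham replicate 1 (0.98), 2 (0.88) or 3 (0.92) or caPI3K sham replicate 1 (0.84) or 3 (0.89), with adjusted p of 0.0534 to 0.0917 (0.000311 to 0.659 over all alternatives). Aplnr in MI hearts lay at 12.08, 11.89, 12.68 and 12.64 in caPI3K, at 11.25, 11.95, 11.82 and 12.29 in dnPI3K and at 11.79, 11.68, 12.47 and 10.94 in Ntg, and the genotypes overlapped.

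Ramp2, a partner of the adrenomedullin receptor, lay at 10.95, 10.62, 10.91 and 10.80 in caPI3K sham hearts, at 11.28, 11.36, 11.10 and 11.39 in dnPI3K sham hearts and at 11.13, 10.99, 11.29 and 10.76 in Ntg sham hearts. The difference between caPI3K and dnPI3K was -0.46 ± 0.12 (adjusted p = 0.0151), and without caPI3K sham replicate 2 it was -0.39 (adjusted p = 0.0733, in a range of 0.00415 to 0.297 over all alternatives). The caPI3K and dnPI3K sham arrays did not overlap. Ramp2 in MI hearts lay at 11.30, 11.13, 11.04 and 11.01 in caPI3K, at 11.26, 11.23, 11.23 and 11.33 in dnPI3K and at 11.44, 11.07, 10.65 and 10.93 in Ntg, and the genotypes overlapped.

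Sox18, the third SoxF factor, lay at 11.40, 11.33, 11.37 and 11.13 in caPI3K sham hearts, at 11.64, 11.50, 11.55 and 11.94 in dnPI3K sham hearts and at 11.49, 11.45, 11.45 and 11.72 in Ntg sham hearts. All caPI3K arrays lay below all other sham arrays. The difference between caPI3K and Ntg was -0.22 ± 0.11 (adjusted p = 0.427), and that between caPI3K and dnPI3K was -0.35 ± 0.11 (adjusted p = 0.0306). The call was lost without dnPI3K sham replicate 1 (-0.36) or 4 (-0.26) or caPI3K sham replicate 2 (-0.36) or 4 (-0.29), with adjusted p of 0.0601 to 0.142 (0.0173 to 0.142 over all alternatives). Sox18 in MI hearts lay at 11.72, 11.37, 11.46 and 11.62 in caPI3K, at 11.68, 11.16, 11.40 and 11.50 in dnPI3K and at 11.23, 11.09, 11.20 and 11.33 in Ntg, with every caPI3K array above every Ntg array. That difference was 0.33 ± 0.11 and was not called (adjusted p = 0.674).

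Clec14a, a lectin of the endothelial surface, lay at 9.79, 9.79, 9.81 and 9.68 in caPI3K sham hearts, at 9.90, 10.33, 10.07 and 10.24 in dnPI3K sham hearts and at 9.90, 10.17, 10.22 and 10.08 in Ntg sham hearts. All caPI3K arrays lay below all other sham arrays. The difference between caPI3K and Ntg was -0.33 ± 0.12 (adjusted p = 0.26). That between caPI3K and dnPI3K was -0.37 ± 0.12, with an adjusted p of 0.0484 close to the threshold. The call was lost when any 1 of 15 arrays was left out, with differences of -0.39 to -0.30 and adjusted p of 0.0518 to 0.174: all 4 caPI3K sham arrays, dnPI3K sham replicates 2, 3 and 4, Ntg sham replicates 2 and 3, and replicates 2 and 3 of Ntg MI, 2 and 3 of dnPI3K MI and 2 and 4 of caPI3K MI. Its second probe set gave -0.05 (adjusted p = 0.956, and 0.0242 to 0.956 over all alternatives). Clec14a in MI hearts lay at 9.70, 9.82, 10.11 and 9.99 in caPI3K, at 9.88, 10.01, 9.99 and 10.30 in dnPI3K and at 10.04, 9.81, 9.92 and 9.52 in Ntg, and the genotypes overlapped.

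Leaving out the 3 caPI3K sham arrays with Y-linked signal kept 1 caPI3K sham array, which was then assumed to vary like the other groups. The share of all genes called in that setting is not given here, so its calls and counts are not read as particular to the 36 genes. Of the 8 genes, Tmem100 (-3.08) and Aqp1 (-1.20) were still called. The other differences kept their sign and were -0.73 for Sox17, -0.61 for Notch1, -0.53 for Sox18, -0.48 for Ramp2, -0.46 for Clec14a and 0.64 for Aplnr, with adjusted p of 0.142 to 0.659. Replicate 4, without Y-linked signal, was the lowest caPI3K sham array for Tmem100, Sox17, Sox18, Aqp1, Notch1, Clec14a and Aplnr. For MI against sham in caPI3K hearts, for caPI3K against Ntg sham hearts and for the differences in MI effect of caPI3K against dnPI3K and against Ntg, 0 of the 36 genes were called without those arrays too. For the mean MI effect 3 were called: Pdpn (0.36), Nos3 (0.35) and Ptprb (0.21). In that setting, for caPI3K against dnPI3K sham hearts, Nos3 (-0.88, adjusted p = 0.0251) and Ptprb, a phosphatase that acts on Tek (-0.55, adjusted p = 0.0469), were called. With arrays 415 to 418 left out instead, which are replicates 1 and 2 of Ntg sham and of dnPI3K sham, Tmem100 (-2.54) and Notch1 (-0.64) were still called.

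**Figure D4:**
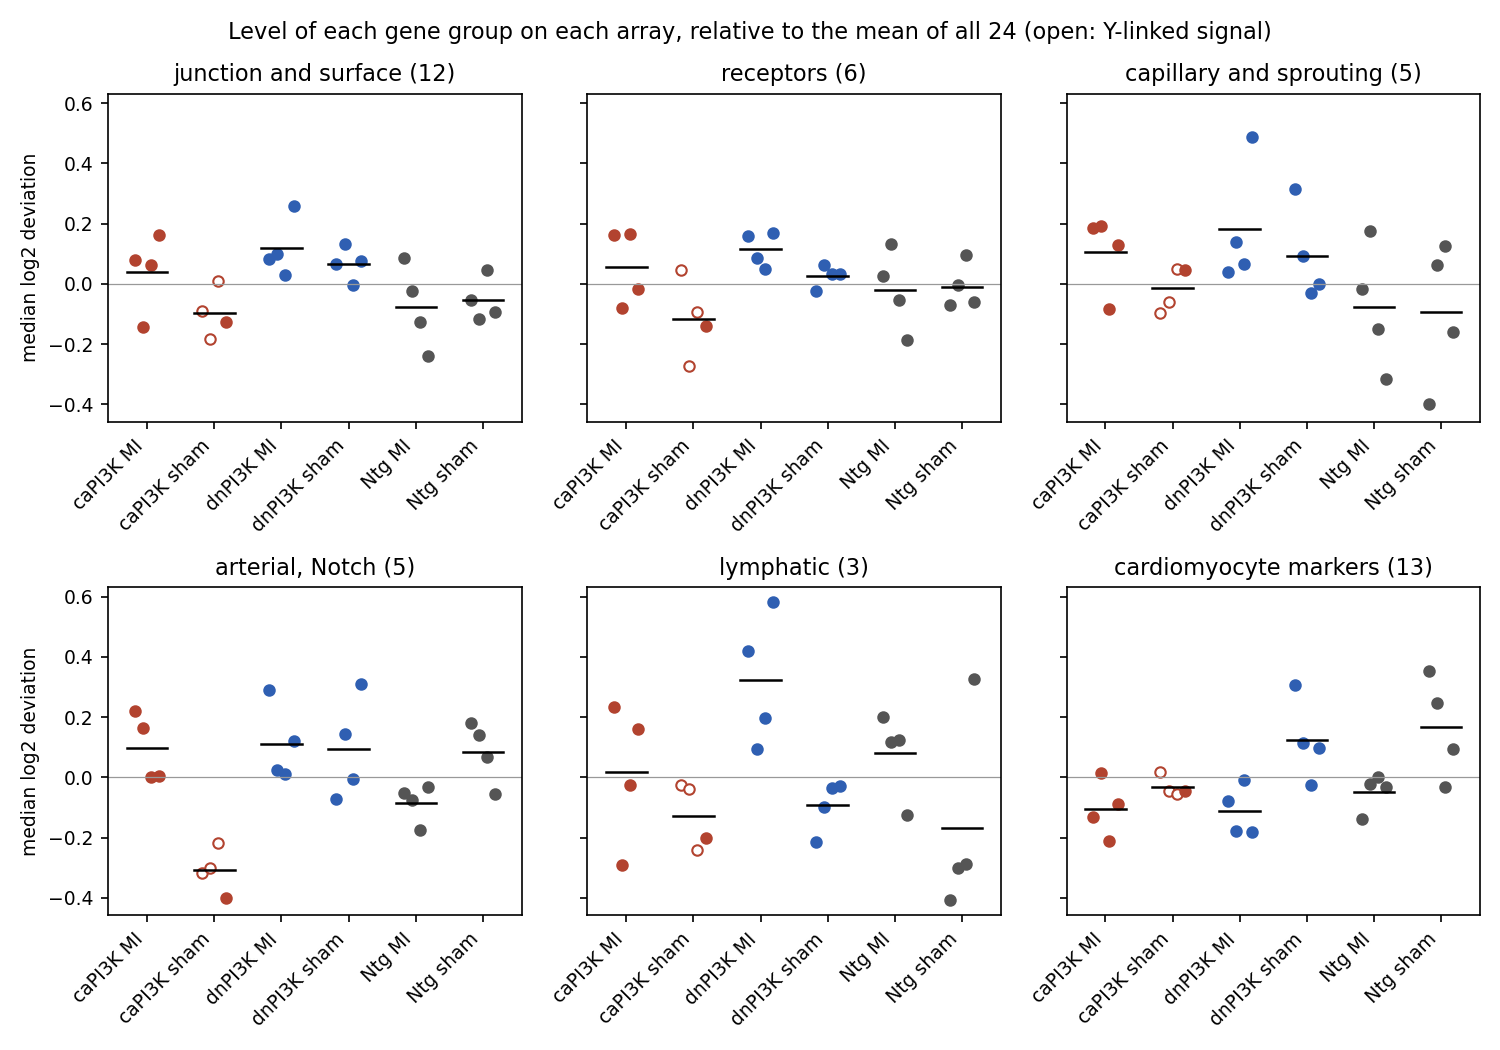
Level of 5 groups of endothelial genes and of the cardiomyocyte markers on each array (y axis, median log2 deviation of the genes from their means over 24 arrays), by genotype and operation (x axis), with a line at each group's mean. Open circles are arrays with Y-linked signal. For the arterial and Notch genes the caPI3K sham arrays lie at -0.40 to -0.22, below all other arrays. The share of gene lists that separate in this way was not counted.

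As a group, the 5 arterial and Notch genes had a level of -0.40 to -0.22 on the caPI3K sham arrays, against -0.07 to 0.31 on dnPI3K and -0.05 to 0.18 on Ntg sham arrays, and 0.00 to 0.22 on caPI3K MI arrays. The caPI3K sham arrays did not overlap any of these. The share of gene lists that separate in this way was not counted. The 5 genes did not all move alike. In caPI3K against dnPI3K sham hearts Sox17 and Notch1 were called lower. The levels use the brightest probe sets. For the same comparison the second Notch1 probe set gave 0.14, the opposite sign, and the second Sox17 probe set gave -0.47. Neither was called. Hey1 (-0.30), Efnb2 (-0.11) and Dll4 (0.10) were not called. The 12 junction and surface genes lay at -0.18 to 0.01 in caPI3K, at -0.0039 to 0.13 in dnPI3K and at -0.12 to 0.05 in Ntg sham hearts, which overlap. The cardiomyocyte list lay at -0.05 to 0.02 in caPI3K, -0.03 to 0.31 in dnPI3K and -0.03 to 0.35 in Ntg sham hearts, and 0 of its 13 genes were called between caPI3K and dnPI3K. Mural cell markers, of pericytes and smooth muscle, had a median difference of -0.19 between caPI3K and dnPI3K sham hearts, close to the -0.18 of the endothelial genes, with 0 of 10 called. Of 4 adipocyte markers 2 were lower in caPI3K than in dnPI3K sham hearts, with a list level of -0.95 to -0.01 in caPI3K against 0.22 to 0.77 in dnPI3K, and 2 of 12 fibroblast and 1 of 7 mesothelial markers were lower. Of all genes 9.9% were called in this comparison. Without the Y-linked arrays 0 genes of the mural, adipocyte, fibroblast and mesothelial lists were called, and the median differences were -0.29 for mural and -0.52 for adipocyte markers. The part of these lists in the endothelial differences was not tested.

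In MI hearts, 1 of the 36 genes was called between caPI3K and dnPI3K (4.23% of all genes), 0 between caPI3K and Ntg (0% of all genes, with 4 of the 36 and 4.63% of all genes at an unadjusted p below 0.05) and 2 between dnPI3K and Ntg (2.59% of all genes). Tmem100 accounts for the first, and Tmem100 and Emcn for the last. Emcn, a sialomucin of capillary and venous endothelium, lay at 11.93, 11.83, 11.92 and 12.12 in dnPI3K MI hearts, against 11.78, 11.72, 11.50 and 11.43 in Ntg MI hearts. Its groups did not overlap, and Ntg MI replicates 3 and 4 were the lowest. In caPI3K MI hearts Emcn lay at 11.85, 11.64, 11.73 and 11.99. In sham hearts it lay at 11.78, 11.44, 11.78 and 11.54 in caPI3K, at 11.86, 11.89, 11.81 and 11.72 in dnPI3K and at 11.66, 11.76, 11.77 and 11.77 in Ntg, where the genotypes overlapped. Emcn was higher by 0.34 ± 0.09 (adjusted p = 0.0428). The call was lost without Ntg MI replicate 3 (0.30) or 4 (0.28), dnPI3K MI replicate 1 (0.35), 3 (0.35) or 4 (0.28), dnPI3K sham replicate 3 (0.34) or caPI3K MI replicate 1 (0.34), with adjusted p of 0.05001 to 0.171 (0.0185 to 0.171 over all alternatives). In dnPI3K against Ntg MI hearts 31 of the 36 genes lay above 0, with a median of 0.18.

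**Figure D5:**
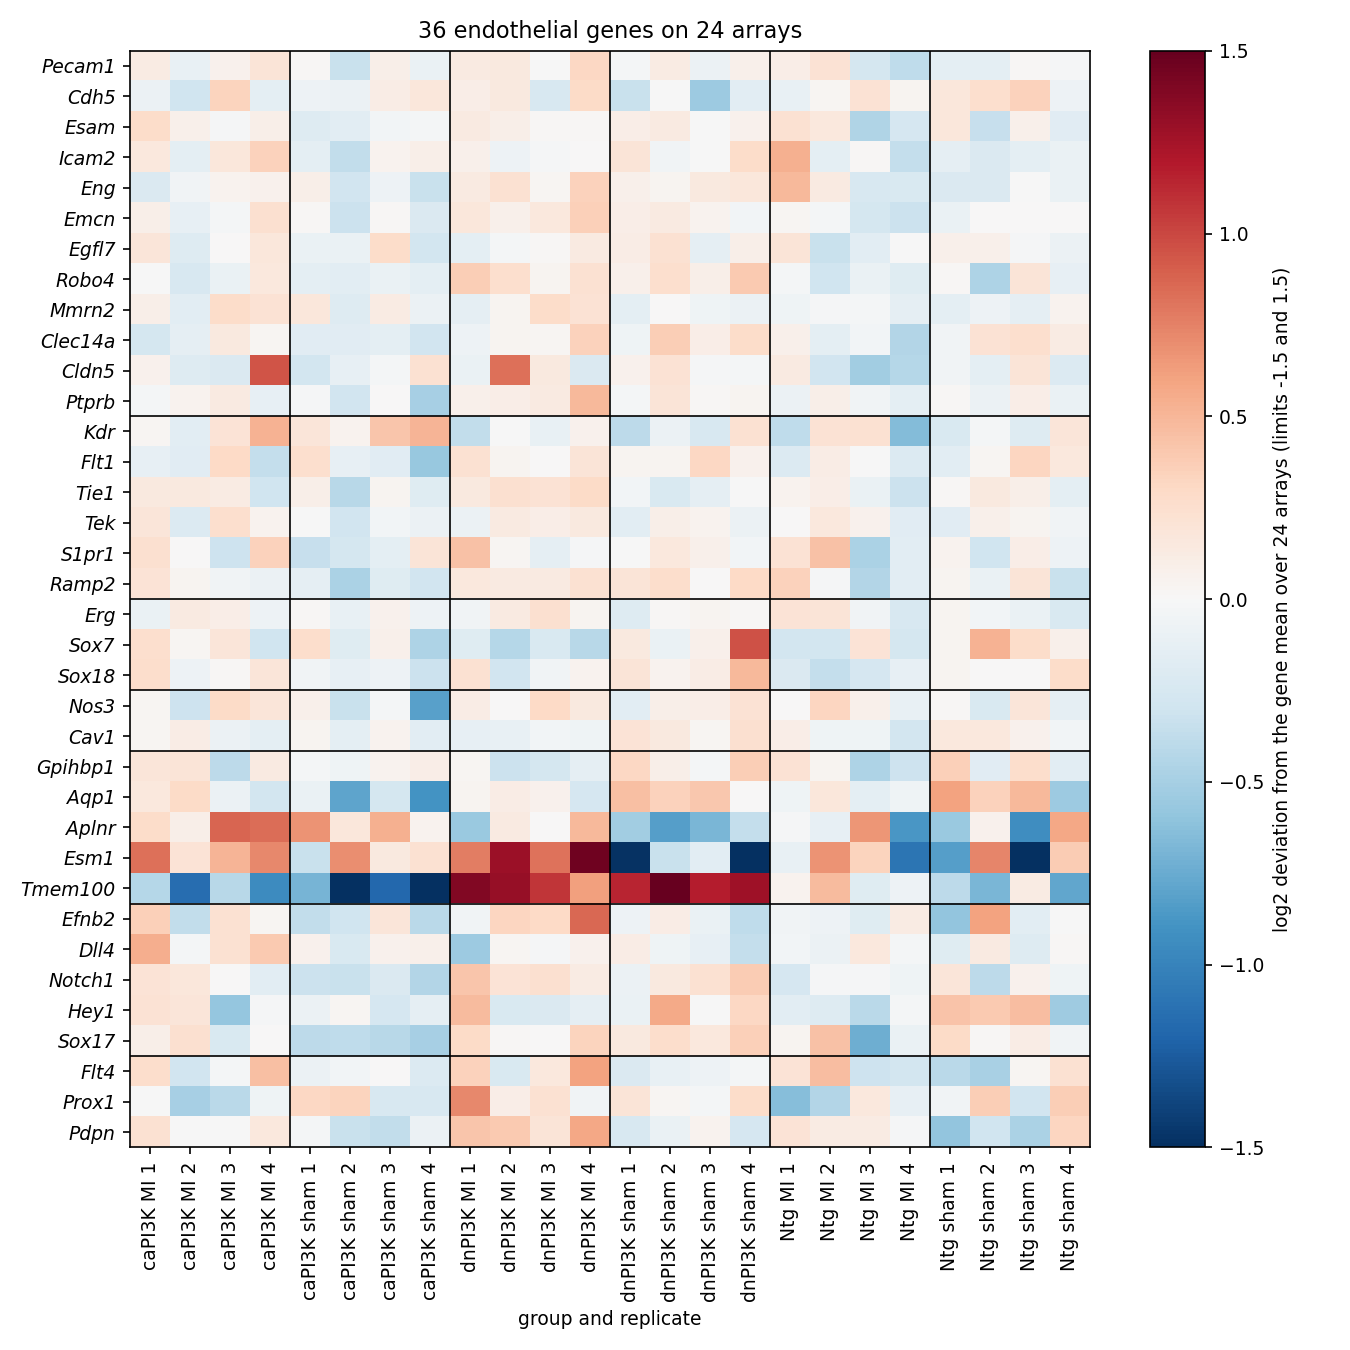
Deviation of each of the 36 endothelial genes (rows, grouped by role) from its own mean on each of the 24 arrays (columns, by genotype, operation and replicate), on the log2(signal + 11.2) scale. Tmem100 is high on all dnPI3K arrays and low on the caPI3K arrays, and Sox17 and Notch1 are low on all 4 caPI3K sham arrays.

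Other endothelial genes outside the 36 were counted from a list of 40, of which 35 were measured. In the mean over genotypes 5 of these 35 rose after MI and 2 fell, while 13.6% of all genes were called. The progenitor and endothelial antigen Cd34 rose by 0.48 (adjusted p = 8.69e-05), the adhesion molecule Icam1 by 0.46 and Mmrn1, which lymphatic endothelium makes, by 0.40. The capillary carbonic anhydrase Car4 fell by 0.51 and the fatty acid transporter Cd36 fell by 0.22. In that mean most fibroblast markers rose and most cardiomyocyte markers fell, as given above. The part of those lists in these changes was not tested. In dnPI3K hearts Cd34 rose by 0.60, Icam1 by 0.51 and Cd93, an endothelial lectin, by 0.44, while Car4 fell by 0.74. In caPI3K hearts Mmrn1 alone rose (0.98, adjusted p = 0.00436, and 1.06 with 0.255 without the Y-linked arrays), and in Ntg hearts 0 of the 35 were called.

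Between caPI3K and dnPI3K sham hearts 5 of the 35 were lower and 1 was higher in caPI3K, while 9.9% of all genes were called. Lmo2, a transcriptional cofactor of blood and endothelium, stood at a mean of 10.35 in caPI3K and 11.34 in dnPI3K sham hearts (-0.98, adjusted p = 3.61e-06). Mmrn1 (-0.86), the clotting protein Vwf (-0.69), the anticoagulant receptor Thbd (-0.52) and the arterial connexin Gja4 (-0.52) were also lower, and Cd93 was higher (0.43). Without the Y-linked arrays Lmo2 (-1.39) and Thbd (-0.84) were still called, and Mmrn1 (-0.94), Vwf (-0.78), Gja4 (-0.18) and Cd93 (0.45) were not. Lmo2 was 0.57 higher in dnPI3K than in Ntg sham hearts and -0.44 in caPI3K against dnPI3K MI hearts, and Vwf was 0.72 higher in dnPI3K than in Ntg MI hearts, the called genes of the list in those comparisons.

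A further list held 48 genes for vascular signals, their receptors, oxygen sensing and intracellular regulators, all measured. Of these, 10 rose and 2 fell after MI in the mean over genotypes. Of all genes 13.6% were called in that mean. The endothelin receptor Ednrb rose by 0.55 (adjusted p = 1.91e-06), the lymphatic growth factor Vegfc by 0.39, the fibroblast growth factor receptor Fgfr1 by 0.44 and the oxygen-regulated factor Hif1a by 0.33. Vegfb fell by 0.18 (adjusted p = 0.0332). In the same mean Vegfa differed by -0.09 (adjusted p = 0.427), Angpt1, the ligand of Tek, by -0.29 (adjusted p = 0.107), Angpt2 by 0.01, Pgf by -0.21 and Apln, the ligand of Aplnr, by 0.15, and none of these 5 was called. For Pgf, a VEGF family ligand of Flt1, that mean covers estimates of unlike sign: -1.37 in caPI3K, -0.59 in dnPI3K and 1.32 in Ntg hearts (adjusted p = 0.196, 0.528 and 0.234). The difference in its MI effect was -2.70 ± 0.69 for caPI3K against Ntg (adjusted p = 0.619) and -1.92 ± 0.69 for dnPI3K against Ntg (adjusted p = 0.593), and neither was called. In dnPI3K hearts 5 rose, among them Ednrb (0.91), Vegfc (0.62) and Vegfd (0.69), and in caPI3K hearts the endothelin gene Edn1 rose by 0.72 (adjusted p = 0.0135, and 0.57 with 0.677 without the Y-linked arrays).

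Between caPI3K and dnPI3K sham hearts 6 of the 48 genes on that list were higher and 3 lower in caPI3K, while 9.9% of all genes were called. The oxygen sensor Egln3 stood at 12.39 in caPI3K and 11.09 in dnPI3K (1.31, adjusted p = 0.000116), and Vegfd was higher by 1.07 and Sema3c by 0.87. Apln was higher by 0.56 (adjusted p = 0.0105), in the same hearts as its receptor Aplnr. The BMP target gene Id3 (-0.56, adjusted p = 0.0106) and the ligand gene Bmp6 (-0.54, adjusted p = 0.0155) were lower. Without the Y-linked arrays Egln3 (1.44) was still called, and Sema3c (0.92), Vegfd (0.80), Apln (0.39), Id3 (-0.52) and Bmp6 (-0.78) were not. Sema3c was -0.59 in dnPI3K against Ntg sham hearts (adjusted p = 0.0454), and Egln3 was 0.78 higher in caPI3K than in dnPI3K MI hearts (adjusted p = 0.0297).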

How the data were processed

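Whole-heart RNA was measured on 24 mouse Affymetrix arrays in 6 groups of 4. The deposited values are signal intensities, which MAS5 made per the submitters' processing notes; the sources used here give no version and no scaling target. On every array the mean signal after trimming 2% at each end lay between 495.2 and 496.2, and no further normalization was applied. Equal trimmed means do not show that the whole distributions match. The 99th percentile of signal was 19641, 20017 and 20369 on arrays 415, 416 and 417, and 15718 to 18167 on the other arrays. The median signal was 150 on dnPI3K MI replicate 1 and 102 to 118 on the other arrays. The number of arrays limits the precision.

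Of 45101 probe sets, 64 controls were left out, and 34945 name 1 gene, 932 several and 9160 none in the platform annotation. A probe set was kept where its signal exceeded its array's 40th percentile on at least 4 arrays (33061 kept), and the brightest stood for its gene. Values were log2(signal + 11.2), the pseudocount being the median signal divided by 10, so folds of dim genes are understated. Limma 3.58.1 (R 4.3.3) fitted 6 group means with an intensity trend and 18 residual degrees of freedom, and 13 two-sided comparisons were adjusted by Benjamini-Hochberg over all genes, each on its own. The fit was tested on simulated data. Alternatives covered normalization, pseudocount, filter, probe set choice, variance model, array weights, samples and single arrays left out. Members and lists were chosen with earlier results of these data known. Full values were given for members called in any comparison and for Pecam1, Cdh5, Kdr, Tek, Nos3 and Prox1; from the other lists, at most 6 called genes per comparison, plus Vegfa, Vegfb, Pgf, Angpt1, Angpt2 and Apln, with up to 3 examples from cell type markers, which included platelet and adipocyte genes. Figures used matplotlib 3.10.9.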

Additional observations from a re-analysis of the deposited data

Results flagged for a closer look

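Among the 216 sets of 4 arrays (36 genes in 6 groups), 12 had an array far from the other 3, and chance gives about 1 in 20 sets. High arrays were Ptprb in dnPI3K MI replicate 4 (12.37, others 11.95 to 12.01), Flt1 in dnPI3K sham replicate 3 (10.56, others 10.28 to 10.32), Sox7 in Ntg MI replicate 3 (10.24, others 9.749 to 9.764), Sox18 in Ntg sham replicate 4 (11.72, others 11.45 to 11.49) and Hey1 in dnPI3K MI replicate 1 (9.468, others 8.76 to 8.852). Low arrays were Emcn in Ntg sham replicate 1 (11.66, others 11.76 to 11.77), Tie1 in caPI3K MI replicate 4 (8.552, others 8.972 to 8.989), Erg in dnPI3K sham replicate 1 (9.406, others 9.618 to 9.645) and Gpihbp1 in caPI3K MI replicate 3 (11.96, others 12.48 to 12.55). Dll4 was low in dnPI3K MI replicate 1 (8.006, others 8.524 to 8.611) and in caPI3K sham replicate 2 (8.319, others 8.609 to 8.626), and Hey1 was low in Ntg sham replicate 4 (8.456, others 9.379 to 9.456).

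Outside the 36 genes, the Y-linked gene Eif2s3y lay at 10.55, 10.94 and 10.99 in caPI3K sham replicates 1, 2 and 3, against 3.708 to 5.714 on the other 21 arrays.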

How the results depend on the processing

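No paired analysis was possible because the labels pair no arrays across groups. The number in each sample title, used here to name arrays, has no stated meaning. Each count of called genes among the 36 was recomputed under up to 38 settings. The share of all genes called in each setting is not set beside these counts. Their changes are therefore not read as particular to the 36 genes. Between caPI3K and dnPI3K sham hearts the count of 8 became 5 with the mean over a gene's probe sets, 1 with the second brightest probe set (16 genes have one), 5 with no intensity trend, 2 without arrays 415 to 418, 4 with a model term marking arrays numbered below 1000 and 4 without the Y-linked arrays. For dnPI3K against Ntg MI hearts the count of 2 became 1 with the mean over probe sets, no intensity trend, the fit on those groups alone, without arrays 415 to 418 and with the array number term, and 0 with the second probe set. For dnPI3K against Ntg sham hearts the count of 1 became 0 with the mean over probe sets, the second probe set and without arrays 415 to 418. For MI in dnPI3K hearts (3) and for caPI3K against dnPI3K MI hearts (1) the second probe set gave 0. For the mean MI effect (2), the second probe set, no trend and leaving out arrays 415 to 418 each gave 1, and array weights gave 4. For MI in caPI3K hearts (0) the fit on those groups alone gave 1 (Sox17), and for caPI3K against Ntg sham hearts (0) array weights gave 1 (Aqp1). With 1 array left out the counts ran between 5 and 8 for caPI3K against dnPI3K sham hearts, 0 and 2 for dnPI3K against Ntg MI hearts, 0 and 4 for MI in dnPI3K hearts, 1 and 3 for the mean MI effect, 0 and 2 for caPI3K against Ntg sham hearts, and 0 and 1 for MI in Ntg and in caPI3K hearts. Signs reversed only with the second probe set: Notch1 0.14 (caPI3K against dnPI3K sham), Sox7 0.15 (MI in dnPI3K) and Tmem100 -0.17 (dnPI3K against Ntg sham). Without arrays 415 to 418, which leaves 2 arrays in each of the Ntg and dnPI3K sham groups, the Tmem100 difference of dnPI3K against Ntg sham hearts was 1.55 (adjusted p = 0.0664, in a range of 2.68e-05 to 0.942), and that of caPI3K against dnPI3K was -2.54. Fewer arrays or fewer genes enter several of these settings by construction, and otherwise the cause was not tested. Quantile normalization kept every call named here.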
